A study of Homo sapiens with 16 samples.

Results

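Under Entinostat, HCT116 cells without p53 differed from HCT116 cells with p53 at 469 of 12466 genes, and all of these differences had the same sign without the drug. HCT116 is a human colorectal cancer cell line. The cells compared were p53-/- cells treated with 2.5 µM Entinostat and p53+/+ cells treated with 2.5 µM Entinostat, each for 8 hours and each with 2 libraries. These are 4 of the 16 libraries of the series. The other groups used here, of the same size and treatment time, were p53-/- and p53+/+ cells given 5 µM Nutlin-3A with 2.5 µM Entinostat (the combination), 5 µM Nutlin-3A alone, or the vehicle DMSO. A gene was included when its mean over the 16 libraries was at least 0.5 RPKM (a read count divided by gene length and by library size), which kept 12466 of 20612 genes, or 60.5%. Polyadenylated RNA was sequenced to between 45902800 and 55507300 alignments per library. Each genotype is 1 cell line, so the loss of p53 and any other difference between the lines cannot be told apart. Whether the replicates were separate cultures is not stated, so p-values here reflect only the spread between the samples at hand, which could be technical.

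Entinostat inhibits class I histone deacetylases (HDACs), enzymes that remove acetyl groups from histones and are generally linked to repression of transcription. p53 is a transcription factor that activates genes of cell cycle arrest, DNA repair and apoptosis. CDKN1A, the gene of p21, an inhibitor of cyclin-dependent kinases, is a classical p53 target and is also known to be induced by HDAC inhibitors without p53. A comparison of the genotypes under Entinostat therefore asks which genotype differences are still there while the drug changes the expression of many genes in both lines. Entinostat against DMSO changed 3520 genes in p53-/- cells (28.2% of those tested) and 3434 genes in p53+/+ cells (27.5%), by limma with Benjamini-Hochberg adjustment and an adjusted p under 0.05, the threshold used throughout.

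Cell identity was checked first. EPCAM, an epithelial adhesion molecule, had 175 and 190 RPKM in p53-/- cells under Entinostat, against 174 and 190 RPKM in p53+/+ cells under Entinostat, and none of the 6 tested epithelial markers differed between the genotypes by the limma test. VIL1, which encodes villin of the intestinal brush border, was listed at 0 in both p53-/- libraries and stayed under 0.02 RPKM in p53+/+ cells. The 15 markers of blood, endothelial, stromal, neuronal and liver cells summed to 11.2 to 12.8 RPKM in p53-/- cells and 12.6 to 12.98 RPKM in p53+/+ cells under Entinostat, mostly from CD68 and COL1A1, with 3 of the 15 at 0 in both libraries of each genotype under the drug. The 7 epithelial markers summed to 2337 to 2649 RPKM in p53-/- cells and 2794 to 2863 RPKM in p53+/+ cells under Entinostat, and the part of this in the results was not tested.

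The promoters of 4 genes on which the results turn are shown. CDKN1A and RGS2 rose with Entinostat in p53-/- cells, and EHF and PROM1 were nearly silent in p53-/- cells with and without it. Each is the RefSeq promoter in build GRCh38.p14, matched by gene symbol, from 250 bases before to 50 after the gene's start, written 5′ to 3′ with every CG pair in capitals. CDKN1A lies at chr6:36678464-36678763 on the plus strand, RGS2 at chr1:192808789-192809088 on the plus strand, EHF at chr11:34624007-34624306 on the plus strand and PROM1 at chr4:16083974-16084273 on the minus strand.
CDKN1A: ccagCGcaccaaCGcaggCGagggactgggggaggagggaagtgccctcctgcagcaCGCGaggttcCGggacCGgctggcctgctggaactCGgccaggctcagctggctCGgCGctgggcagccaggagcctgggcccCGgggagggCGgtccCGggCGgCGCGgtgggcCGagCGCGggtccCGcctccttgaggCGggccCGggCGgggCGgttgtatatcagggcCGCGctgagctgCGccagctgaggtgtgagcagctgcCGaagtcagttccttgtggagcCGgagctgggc
RGS2: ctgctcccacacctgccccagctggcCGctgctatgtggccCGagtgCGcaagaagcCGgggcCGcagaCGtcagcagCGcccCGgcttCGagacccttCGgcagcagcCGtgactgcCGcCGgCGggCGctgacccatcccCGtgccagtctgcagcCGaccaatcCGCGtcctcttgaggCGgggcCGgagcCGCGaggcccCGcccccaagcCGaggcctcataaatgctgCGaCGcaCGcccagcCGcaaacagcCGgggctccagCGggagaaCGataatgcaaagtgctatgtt
EHF: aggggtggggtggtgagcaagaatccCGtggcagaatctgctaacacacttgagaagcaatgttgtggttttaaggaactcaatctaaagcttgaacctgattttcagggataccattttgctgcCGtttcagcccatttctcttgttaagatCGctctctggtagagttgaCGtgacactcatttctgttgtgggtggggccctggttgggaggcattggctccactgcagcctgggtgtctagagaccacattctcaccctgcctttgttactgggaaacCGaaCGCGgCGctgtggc
PROM1: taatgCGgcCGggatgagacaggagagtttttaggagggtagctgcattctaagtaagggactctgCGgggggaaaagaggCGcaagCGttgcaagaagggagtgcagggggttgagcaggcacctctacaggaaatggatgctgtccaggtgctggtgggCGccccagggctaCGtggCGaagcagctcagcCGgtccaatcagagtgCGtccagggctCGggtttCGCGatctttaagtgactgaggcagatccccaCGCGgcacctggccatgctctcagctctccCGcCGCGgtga
The CDKN1A window holds 29 CG pairs and the RGS2 window 32, against 8 in EHF and 18 in PROM1. Among 27305 RefSeq promoters of the same length, 24.0% had at least as many CG pairs as CDKN1A, 18.6% as many as RGS2, 60.1% as many as EHF and 44.5% as many as PROM1. The letters GGGCGG, counted on both strands, occur 4 times in the CDKN1A window, once in RGS2 and not in EHF or PROM1, and 44.6% of all promoters and 72.3% of those of tested genes hold them. The median number of CG pairs was 27 over the 9378 tested genes that matched. It was 23 in the 102 matched promoters of genes higher in p53-/- cells under both Entinostat and DMSO, and 23 in the 155 of genes lower under both. Among the latter it was 19.5 in the 46 lower by at least 1 on the log2 scale, as EHF and PROM1 were. In the 185 of genes called only under DMSO, as CDKN1A and RGS2 were, it was 26. Whether the 4 windows differ beyond other genes was not tested.

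**Figure D1:**
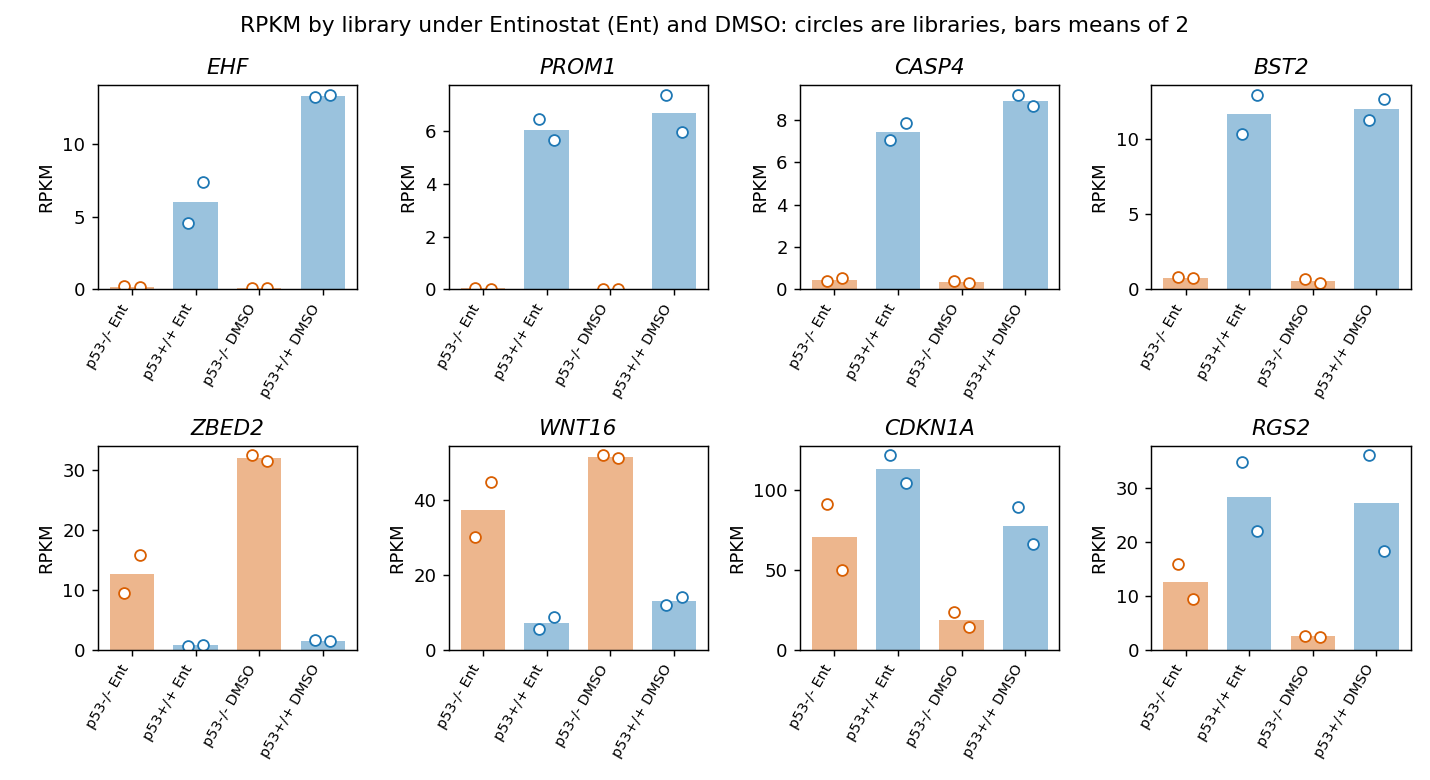
RPKM of 8 genes (linear axes from 0) in p53-/- and p53+/+ cells under Entinostat and under DMSO; each open circle is 1 library and each bar the mean of 2. EHF, PROM1, CASP4 and BST2 were low in every p53-/- library, while CDKN1A reached 91.0 and 49.9 RPKM in p53-/- cells under Entinostat.

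The genotype gap is the difference p53-/- minus p53+/+ in log2(RPKM + 0.5), a scale on which folds of weakly expressed genes come out too small. Under Entinostat 170 genes were higher in p53-/- cells and 299 were lower, 3.76% of the genes tested, with 1.36% higher and 2.4% lower. At least 2-fold differences on this scale were seen for 39 of the higher and 74 of the lower genes. The median gap over all genes was -0.02. The gap under DMSO was positive for 195 called genes (1.56% of those tested) and negative for 390 (3.13%), together 4.69%. In 5640 tested genes, or 45.2%, the Entinostat libraries of the genotypes did not overlap.

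Most of the differences under Entinostat were differences between the untreated lines. All 469 genes had the same sign of gap under DMSO, where 76.4% of all tested genes did, and the DMSO comparison uses none of the same libraries. Most tested genes had small gaps, with a median absolute gap of 0.13 under Entinostat among those called in neither comparison. The spread of each gene was estimated over all 16 libraries for both comparisons, so their calls are not independent. Of the 469, 340 (72.5%) were also called under DMSO in the same direction, and these 340 were 58.1% of the 585 genes called under DMSO. They are called persisting genes below: 129 were higher and 211 lower in p53-/- cells, with a median absolute gap of 0.81 under Entinostat and 0.84 under DMSO. Of the 113 genes with an Entinostat gap of at least 1 on the log2 scale, 102 (90.3%) were also called under DMSO in the same direction. Across all tested genes the gaps under Entinostat and DMSO had a Pearson correlation of 0.81. This describes genes, which are not independent replicates, measured in cells of the same lines.

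The difference between the gaps was tested itself, as the gap under Entinostat minus the gap under DMSO. It passed the limma test for 0 genes (0.0%), and 164 genes had an unadjusted p under 0.05. With the replicate number as a block 4 genes passed (0.0321%), and with a replicate term of its own for the Entinostat libraries 14 genes passed (0.112%), of which 12 are described below. Those blocks raised the count for the Entinostat gap itself to 1644 genes (13.2%) and 2402 genes (19.3%), and both counts include all 469. The median half-width of the 95% interval of the change was 0.42 over all genes, before adjustment across genes. Larger changes also missed the adjusted threshold without a block, such as 1.97 for RGS2. Changes of gap well above 0.42 could therefore go undetected with 2 libraries per group. For 298 of the 340 persisting genes (87.65%) this interval lay within -1 to 1. A further 129 genes were called only under Entinostat and 245 only under DMSO, and for none of these did the limma test without a block show that the gap changed.

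**Figure D2:**
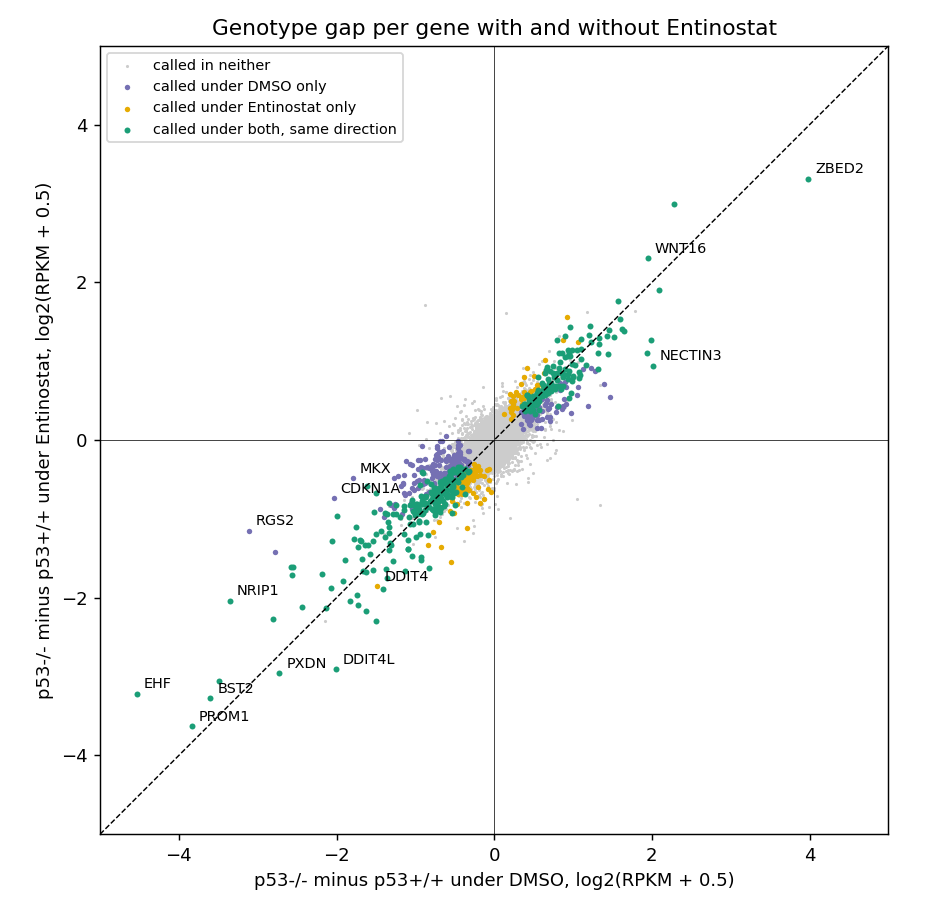
Genotype gap of each tested gene under DMSO (horizontal axis) and under Entinostat (vertical axis), both p53-/- minus p53+/+ in log2(RPKM + 0.5), coloured by whether the gap was called under both treatments, 1 or neither. Genes gather along the diagonal, with a Pearson correlation of 0.81; CDKN1A and RGS2 lie above it, at gaps of -0.73 and -1.15 under Entinostat against -2.04 and -3.11 under DMSO.

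Several genes active in p53+/+ cells were close to silent in p53-/- cells under Entinostat. PROM1, which encodes the surface antigen CD133, had 0.0369 and 0.0188 RPKM in p53-/- cells, against 6.45 and 5.66 RPKM in p53+/+ cells, a gap of -3.63 ± 0.14 (SE, limma adjusted p = 5.55e-08). EHF, an epithelial transcription factor of the ETS family, had 0.233 and 0.130 RPKM in p53-/- cells, against 4.55 and 7.39 RPKM in p53+/+ cells, a gap of -3.22 ± 0.26 (limma adjusted p = 2.95e-05). The p53+/+ mean of EHF was 33.0 times the p53-/- mean, and the libraries of both genes were apart between genotypes, which is how they were chosen. In bulk RNA, fewer cells expressing a gene and less RNA of it per cell cannot be told apart. Their paths under the drug differed in p53+/+ cells: EHF fell there by 1.13 on the log2 scale with Entinostat (limma adjusted p = 0.00952), while PROM1 changed by -0.13 (adjusted p = 0.539). In p53-/- cells the changes with Entinostat were 0.19 for EHF and 0.08 for PROM1, and neither passed the test (adjusted p = 0.63 and 0.72).

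BST2, an antiviral membrane protein induced by interferon, had 0.780 and 0.717 RPKM in p53-/- cells under Entinostat, against 10.4 and 12.98 RPKM in p53+/+ cells. CASP4, the inflammatory caspase that senses bacterial lipopolysaccharide, had 0.392 and 0.515 RPKM in p53-/- cells, against 7.04 and 7.87 RPKM in p53+/+ cells. PXDN, a peroxidase of the extracellular matrix, had 0.0232 and 0.0356 RPKM in p53-/- cells, against 3.42 and 3.82 RPKM in p53+/+ cells. The genotypes were far apart in every library of these genes, with gaps of -3.28, -3.06 and -2.96, and under DMSO the gaps were -3.60, -3.49 and -2.73. DDIT4L, a relative of the mTORC1 inhibitor DDIT4, had 0.724 and 0.308 RPKM in p53-/- cells, against 9.06 and 5.29 RPKM in p53+/+ cells, a gap of -2.90, where the DMSO gap was -2.01. At these low values the scale matters, since the ratio of p53+/+ to p53-/- means was 13.9 under Entinostat and 21.4 under DMSO. ARRDC4, an arrestin-domain protein (gap -2.30), ENC1, an actin-binding kelch protein (-2.27), SULT1A1, a sulfotransferase with close paralogs that can share reads (-2.17), and ARAF, a RAF-family kinase (-2.13), complete the 10 largest negative gaps reported.

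ARAF shows how little a gap could move. It had 1.74 and 1.64 RPKM in p53-/- cells under Entinostat, against 8.55 and 9.65 RPKM in p53+/+ cells, and 2.43 and 2.28 RPKM in p53-/- cells under DMSO, against 11.6 and 12.6 RPKM in p53+/+ cells. ARAF fell by 0.39 on the log2 scale with Entinostat in both genotypes, and the change of gap was 0.01, with a 95% interval from -0.29 to 0.30. ENC1 was less settled: it rose with Entinostat in p53-/- cells by 1.16 (limma adjusted p = 0.00646), in p53+/+ cells its change was 0.62 (adjusted p = 0.0836), and the change of gap was 0.54, with a 95% interval from -0.24 to 1.31.

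Fewer genes were higher in p53-/- cells, among them ZBED2 and several Wnt ligands. ZBED2, a zinc finger transcription factor, had 9.58 and 15.8 RPKM in p53-/- cells under Entinostat, against 0.724 and 0.858 RPKM in p53+/+ cells, a gap of 3.31 ± 0.30 (limma adjusted p = 7.43e-05). WNT16, a secreted Wnt ligand, had 30.1 and 44.7 RPKM in p53-/- cells, against 5.60 and 8.72 RPKM in p53+/+ cells, a gap of 2.31 ± 0.24 (limma adjusted p = 0.000187). TIMM17B, a subunit of the mitochondrial import channel, had 17.6 and 17.5 RPKM in p53-/- cells, against 4.501 and 4.14 RPKM in p53+/+ cells, a gap of 1.91 ± 0.13 (limma adjusted p = 6.9e-06). The libraries of the genotypes were apart in each of these genes, which is how they were chosen. ZBED2 fell with Entinostat in p53-/- cells, by 1.34 on the log2 scale (limma adjusted p = 0.00794), and averaged 12.7 ± 4.39 RPKM there (SD, n = 2), against 0.791 ± 0.0949 RPKM in p53+/+ cells.

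The other large positive gaps were in CHPT1, an enzyme of phosphatidylcholine synthesis (1.77), ZNF134, a zinc finger gene (1.54), STXBP6, a SNARE-binding protein (1.44), WNT3A, a canonical Wnt ligand (1.41), and F3, which encodes tissue factor (1.39). SNORA31, a small nucleolar RNA lying in another gene (2.99), and RPL17-C18orf32, a read-through transcript (1.56), share sequence with other genes, so their counts are uncertain. RPL17-C18orf32 lost its call without p53-/- replicate 1 (adjusted p = 0.121), p53+/+ replicate 1 (0.0589) or p53+/+ replicate 2 (0.12), and SNORA31 without p53+/+ replicate 1 (0.0589), all by limma. The other 18 of these 20 genes stayed called without any 1 of the 4 libraries, and 19 of the 20 were also called under DMSO in the same direction.

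Known p53 targets were lower in p53-/- cells under Entinostat in 10 of 56 tested genes and higher in 1, against 2.4% lower and 1.36% higher over all genes, and under DMSO in 17 lower and 2 higher. The median gap of the 56 was -0.12 under Entinostat and -0.23 under DMSO, where all genes had -0.02 under Entinostat. With the replicate block 17 were lower and 4 higher, where 8.78% of all genes were lower and 4.41% higher. With the own Entinostat term 20 were lower and 7 higher, where 12% of all genes were lower and 7.25% higher. Without any 1 of the Entinostat libraries 4 or 5 were lower. GDF15, a secreted stress factor, had 24.5 and 18.7 RPKM in p53-/- cells, against 105 and 85.4 RPKM in p53+/+ cells, a gap of -2.12 (limma adjusted p = 0.00328). TNFRSF10C, a decoy receptor for TRAIL, had 0 and 0.0335 RPKM in p53-/- cells, against 0.884 and 0.971 RPKM in p53+/+ cells, a gap of -1.47 (limma adjusted p = 6e-05). TP53INP1, a stress-induced p53 cofactor, had 1.43 and 1.10 RPKM in p53-/- cells, against 5.12 and 3.59 RPKM in p53+/+ cells, a gap of -1.45 (limma adjusted p = 0.00181). The libraries of the genotypes did not overlap in any of these 3 genes, which was also so for 45.2% of all tested genes.

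The other lower targets were BTG2, an antiproliferative factor (-1.10), the oxidoreductase gene TP53I3 (-0.94), the DNA damage recognition genes DDB2 (-0.83) and XPC (-0.57), FDXR, a mitochondrial reductase (-0.82), RRM2B, the p53-inducible ribonucleotide reductase subunit (-0.66), and RPS27L (-0.40). PTP4A1, a tyrosine phosphatase, was the target higher in p53-/- cells, with 67.4 and 113 RPKM against 31.9 and 37.0 RPKM in p53+/+ cells, a gap of 1.33. FDXR missed the threshold under DMSO, and the other 10 called targets persisted. Of the 17 targets lower under DMSO, 9 were called lower under Entinostat, where 58.1% of all genes called under DMSO were called in the same direction. A gap closer to 0 under Entinostat was seen in 15 of the 17, though these were chosen for their DMSO gap. Over all genes called under DMSO, the median gap in the DMSO direction was 0.74 under DMSO and 0.59 under Entinostat. Entinostat raised 3 of these 17 in p53-/- cells and 1 in p53+/+ cells, and it lowered 1 in p53+/+ cells. Of all 12466 tested genes, it raised 1868 in p53-/- cells and 1887 in p53+/+ cells, and it lowered 1547 in p53+/+ cells.

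MDM2, the ubiquitin ligase that degrades p53 and is itself a p53 target, had 13.6 and 15.1 RPKM in p53-/- cells under Entinostat, against 16.5 and 18.8 RPKM in p53+/+ cells, a gap of -0.29 that missed the threshold (limma adjusted p = 0.23). SESN1, a stress-induced regulator of mTORC1, rose with Entinostat in p53-/- cells to 3.68 and 3.24 RPKM, against 1.70 and 1.59 RPKM under DMSO (limma adjusted p = 0.000787). In p53+/+ cells SESN1 had 4.67 and 4.13 RPKM under Entinostat, against 4.49 and 3.56 RPKM under DMSO, and the change missed the threshold (adjusted p = 0.48). Its gap was -0.31 under Entinostat (adjusted p = 0.205, and 0.045 with the own Entinostat term) and -1.07 under DMSO, and the change of 0.76, with a 95% interval from 0.40 to 1.13, did not pass the limma test across genes.

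**Figure D3:**
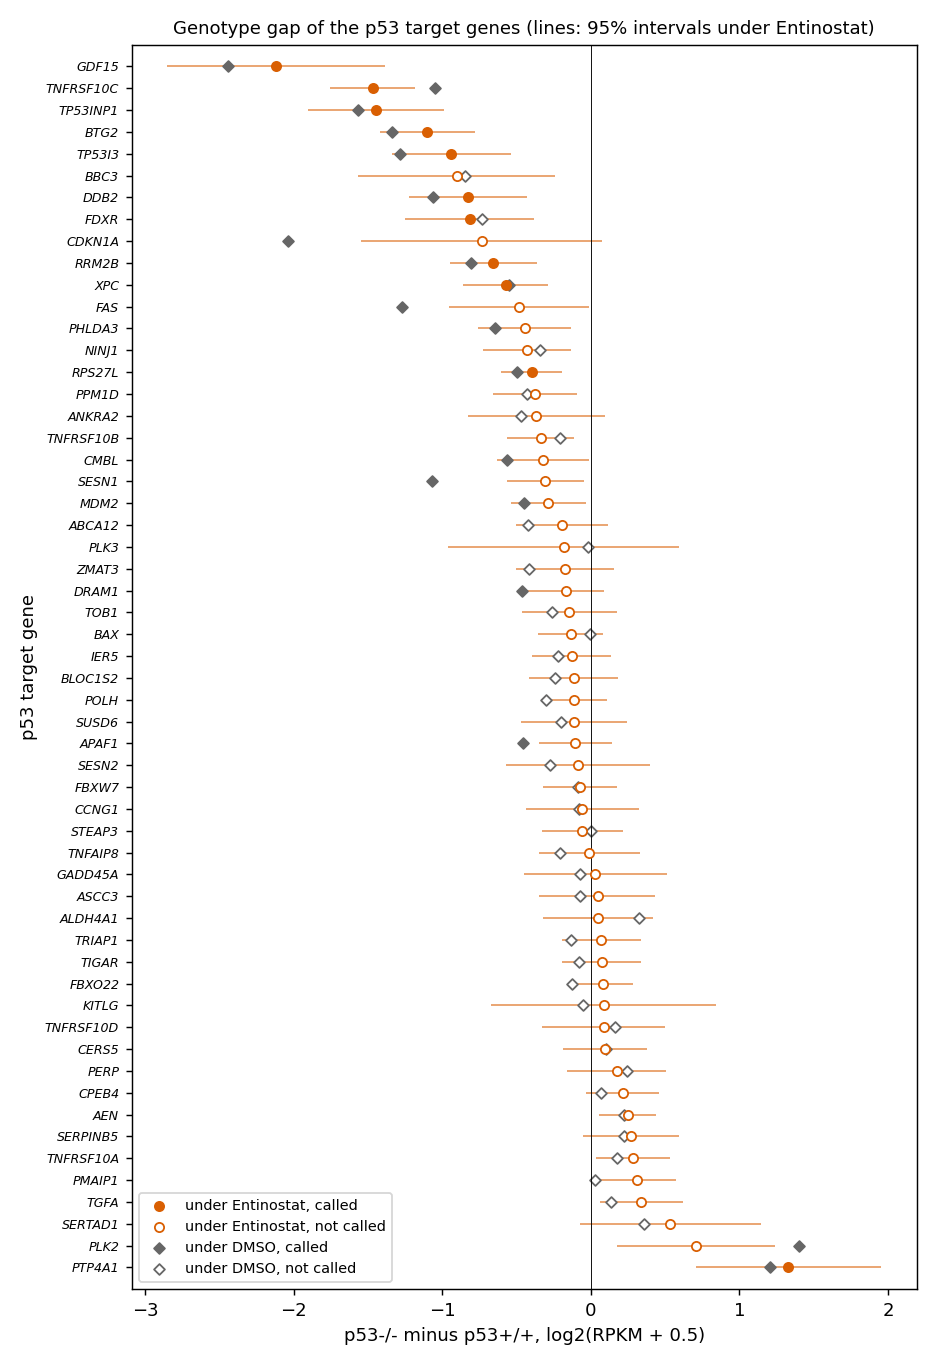
Genotype gap, p53-/- minus p53+/+ in log2(RPKM + 0.5), of the 56 tested p53 targets, with 1 gene per row, circles for Entinostat, diamonds for DMSO, filled where called, and lines for the 95% interval under Entinostat. GDF15, TNFRSF10C and TP53INP1 were called under both treatments, while the Entinostat circles of CDKN1A (-0.73), FAS (-0.48) and SESN1 (-0.31) lie nearer to 0 than their DMSO diamonds.

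CDKN1A was the target whose gap was smaller under Entinostat in both blocked fits. It had 91.0 and 49.9 RPKM in p53-/- cells under Entinostat, against 122 and 104 RPKM in p53+/+ cells, and 23.7 and 14.1 RPKM in p53-/- cells under DMSO, against 89.2 and 66.1 RPKM in p53+/+ cells. The genotypes did not overlap under either treatment, and under Entinostat 45.2% of all tested genes did not. CDKN1A rose with Entinostat in p53-/- cells by 1.85 on the log2 scale (limma adjusted p = 0.00464), and in p53+/+ cells the change of 0.55 missed the threshold (adjusted p = 0.297). Its gap was -0.73 under Entinostat (limma adjusted p = 0.354, and 0.00222 with the replicate block) and -2.04 under DMSO. The change of gap was 1.30, with a 95% interval from 0.16 to 2.45; its adjusted p by limma was 1 without a block, 0.0221 with the block and 0.0228 with the own Entinostat term. Under the combination p53+/+ cells had 1069 and 722 RPKM of CDKN1A, above the 100 and 54.5 RPKM of p53-/- cells.

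The gap of RGS2, a regulator of G protein signalling, changed most among these 12 genes. RGS2 had 15.9 and 9.44 RPKM in p53-/- cells under Entinostat, against 34.9 and 22.1 RPKM in p53+/+ cells, and 2.66 and 2.42 RPKM in p53-/- cells under DMSO, against 36.1 and 18.4 RPKM in p53+/+ cells. It rose with Entinostat in p53-/- cells by 2.07 (limma adjusted p = 0.0025) while the change in p53+/+ cells was 0.10 (adjusted p = 0.864). The change of gap was 1.97, with an adjusted p of 0.0104 with the block and 0.0139 with the own Entinostat term, both by limma.

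MKX was also called in both blocked fits, and there the larger movement was in p53+/+ cells. MKX, a homeobox transcription factor of tendon, had 0.284 and 0.391 RPKM in p53-/- cells under Entinostat, against 0.519 and 0.845 RPKM in p53+/+ cells, and 0.998 and 1.23 RPKM in p53-/- cells under DMSO, against 4.60 and 5.59 RPKM in p53+/+ cells. It fell with Entinostat in both genotypes, by 0.94 in p53-/- cells and by 2.25 in p53+/+ cells, and the change of gap was 1.31 (limma adjusted p = 0.0104 with the block).

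The 12 genes, which were singled out after their values were seen, had a gap closer to 0 under Entinostat in 10 cases, though in 3 of these the gap crossed 0. The changes of gap of the other genes above 0 were 1.35 for ADGRF1, an adhesion receptor, 1.02 for DSC3, a desmosomal cadherin, 0.91 for C6orf141, 0.87 for SMIM3 and 0.78 for EREG, the EGFR ligand epiregulin. Those below 0 were -1.07 for NECTIN3, a cell adhesion molecule, -0.89 for DDIT4L, -0.69 for CRIP2 and -0.62 for FAM89B. DDIT4L and FAM89B had the wider gaps under Entinostat on the log2(RPKM + 0.5) scale. As a ratio of means, p53+/+ over p53-/-, DDIT4L went the other way, with 21.4 under DMSO and 13.9 under Entinostat. Its p53-/- libraries under DMSO had 0.144 and 0.031 RPKM, below the 0.5 added before the log. The gap changed sign for C6orf141 (0.44 under Entinostat, -0.47 under DMSO), EREG (0.35 and -0.43), SMIM3 (0.24 and -0.63) and FAM89B (-0.37 and 0.25). With the own Entinostat term the Entinostat gaps of C6orf141 (limma adjusted p = 0.0121), EREG (0.00563) and FAM89B (0.00303) were called. NECTIN3 had 6.60 and 9.19 RPKM in p53-/- cells under Entinostat, against 3.86 and 3.77 RPKM in p53+/+ cells, and 15.6 and 14.6 RPKM in p53-/- cells under DMSO, against 3.47 and 3.27 RPKM in p53+/+ cells. Its p53-/- libraries were thus lower with Entinostat, and those of p53+/+ cells slightly higher.

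The same change could be read in other libraries, as the gap under the combination minus the gap under Nutlin-3A alone. The sign was the same for 11 of the 12 genes, all but CRIP2, where 70.0% of all tested genes had the same sign. With the own Entinostat term all 11 passed the limma test in that setting, where 292 genes or 2.34% passed. The 12 genes had been chosen by the same fit, whose estimate of the spread per gene is shared by all 16 libraries. These passes are therefore not independent support. Without a block 11 genes or 0.0882% of those tested passed there, of which DSC3 (limma adjusted p = 0.0341) was the only 1 of the 12, the others having adjusted p from 0.135 to 0.986. For RGS2 the change with Entinostat on a Nutlin-3A background was 1.58, where it was 1.97 on a DMSO background.

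For the gene lists that follow, the shares to read the counts against are those over all tested genes. They were 1.36% higher and 2.4% lower without a block, and 4.41% higher and 8.78% lower with the replicate block. From earlier results of these data, EHF, PROM1, BST2, CASP4, WNT16, WNT9A and DNER were already known to mark the p53-/- line without drug. Counts of lists that hold them are therefore not independent support. Class I HDACs, the enzymes Entinostat inhibits, were part of a list of 32 deacetylase and corepressor genes in which 1 was lower in p53-/- cells under Entinostat and 0 higher, against 2.4% of all genes lower, and 3 were lower with the block. HDAC2 had 13.8 and 14.7 RPKM in p53-/- cells, against 30.4 and 29.3 RPKM in p53+/+ cells, a gap of -1.04 ± 0.09 (limma adjusted p = 2.95e-05). The p53-/- libraries held less than those of p53+/+ cells throughout, and under DMSO they had 15.8 and 14.6 RPKM, against 29.8 and 29.9 RPKM in p53+/+ cells. HDAC1 (gap -0.06, adjusted p = 0.867) and HDAC3 (-0.17, adjusted p = 0.598) missed the threshold in the same limma test, and HDAC3 passed it with the own Entinostat term (0.0487).

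Of 26 tested interferon response genes 3 were lower and 0 higher in p53-/- cells under Entinostat, where 2.4% of all genes were lower, with a median gap of -0.31. The 3 were BST2, the ubiquitin-like protein ligase HERC5 (-0.81) and IFI35 (-0.76), and 9 were lower with the replicate block, where 8.78% of all genes were. Of 12 genes of MHC class I presentation 2 were lower without a block and 5 with it. The 2 were HLA-E (-1.20), whose reads may be shared with other HLA genes, and B2M, the constant light chain (-0.72). B2M had 164 and 152 RPKM in p53-/- cells, against 267 and 256 RPKM in p53+/+ cells. CASP4 was the single call among 7 inflammatory caspase genes, and the chemokine CXCL3 (-0.80) that among 13 NF-kB targets.

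Among 19 Wnt targets and ligands 3 were higher in p53-/- cells under Entinostat and 1 was lower, where 1.36% of all genes were higher and 2.4% lower, and with the block 5 were higher and 3 lower. WNT9A, a Wnt ligand, had 7.63 and 8.12 RPKM in p53-/- cells, against 2.88 and 2.57 RPKM in p53+/+ cells, a gap of 1.38. It rose with Entinostat by 0.98 in p53-/- cells and by 1.25 in p53+/+ cells, so both lines moved and the gap stayed called. DKK1, a secreted Wnt antagonist, had 484 and 386 RPKM in p53-/- cells, against 210 and 154 RPKM in p53+/+ cells, a gap of 1.26. The lower gene was the transcription factor gene MYC (-0.61, limma adjusted p = 0.0418), whose call was lost with median of ratios scaling.

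Of 7 intestinal epithelium genes 3 were lower in p53-/- cells, where 2.4% of all genes were, namely PROM1, EHF and ELF3, an epithelial ETS factor. PROM1 and EHF were already known from earlier results of these data to mark this line, so the count is not independent support. ELF3 had 18.7 and 17.7 RPKM in p53-/- cells, against 33.0 and 36.3 RPKM in p53+/+ cells, and it rose with Entinostat in both genotypes, by 1.21 in p53-/- cells and by 1.10 in p53+/+ cells. Of 11 mesenchymal genes 2 were lower with and without the block, the calcium-binding protein gene S100A4 (-1.68) and TWIST1, a transcription factor of epithelial to mesenchymal transition. TWIST1 was listed at 0 in all p53-/- libraries under Entinostat, DMSO and the combination, and had 1.64 and 1.29 RPKM in p53+/+ cells under Entinostat. Of 13 neuronal genes 1 was higher, the Notch ligand gene DNER (1.10), against 1.36% of all genes, and 2 were lower, against 2.4%, the synuclein gene SNCG (-1.52) and the synaptotagmin gene SYT1 (-0.52).

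Metabolic and growth lists had 1 to 3 calls each. SQLE, an enzyme of cholesterol synthesis, was the 1 of 25 genes of that pathway called, with 18.2 and 18.04 RPKM in p53-/- cells, against 44.7 and 48.0 RPKM in p53+/+ cells. It rose with Entinostat by 0.97 in p53-/- cells and by 0.67 in p53+/+ cells. Of 34 ribosome biogenesis and MYC genes 3 were lower, NOLC1, a nucleolar phosphoprotein (-1.31), GNL3, the nucleolar GTPase nucleostemin (-0.85), and MYC. DDIT4, an mTORC1 inhibitor induced by stress, was the 1 lower of 21 genes of the integrated stress response. It had 24.2 and 16.4 RPKM in p53-/- cells, against 75.6 and 71.2 RPKM in p53+/+ cells. The DDIT4 call (limma adjusted p = 0.0348) was lost whichever of the 4 Entinostat libraries was left out. The same held for DNER, IFI35 and KLF4. Of 23 hypoxia and glycolysis genes the glucose transporter gene SLC2A1 was higher (1.29) and the peptide hormone gene ADM lower (-1.18).

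Signalling lists had few calls without a block, where 1.36% of all genes were higher and 2.4% lower. Of 28 immediate early and ERK feedback genes 2 were higher, the AP-1 subunit gene FOSL1 (1.27) and KLF4 (0.43), and MYC was lower; with the block 4 were higher and 4 lower. Of 18 YAP targets 2 were higher, F3 and AMOTL2 (0.79), and of 18 Notch genes 2 were lower, the ligand gene DLL1 (-0.81) and DTX4 (-0.73). With the block 6 YAP targets were higher and 4 Notch genes lower. The tight junction gene TJP1 (0.40) was the 1 call of 21 junction and keratin genes. No call was made in the limma test without a block among 8 CDK inhibitors, 15 BCL2 family genes, 8 EGFR family genes, 16 histone genes, 24 HOX genes or 4 metallothioneins. With the block, where 4.41% of all genes were higher and 8.78% lower, all 4 tested metallothioneins, which bind metal ions, were lower in p53-/- cells, with a median gap of -0.67. In the same fit 3 histone genes, 1 CDK inhibitor and 1 BCL2 family gene were lower, and 2 EGFR family genes and 1 HOX gene were higher.

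Cell cycle genes had few calls under Entinostat and many under the combination. Of 38 DNA replication genes 0 were called under Entinostat, and of 35 G2/M genes 1 was called, the phosphatase gene CDC25B (-0.40). Under the combination 30 replication genes were higher in p53-/- cells and 1 was lower, and 34 of the 35 G2/M genes were higher. That comparison called 4529 genes, or 36.3%, with 20.5% higher and 15.9% lower, and of the 56 p53 targets 47 were lower and 1 higher. Of the 469 genes called under Entinostat, 422 (90%) were called in the same direction under the combination, and these were 9.32% of its 4529 calls. ARRDC4 had 10.3 and 4.94 RPKM under Entinostat and 28.4 and 17.7 RPKM under the combination in p53+/+ cells, while p53-/- cells stayed at or under 1.20 RPKM in each.

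CFLAR, which encodes the caspase-8 inhibitor FLIP named in the title of the series, had 1.16 and 1.43 RPKM in p53-/- cells under Entinostat, against 0.754 and 1.08 RPKM in p53+/+ cells. The gap of 0.35 missed the threshold without a block (limma adjusted p = 0.324) and with the block (0.105), and passed it with the own Entinostat term (0.0228). TNFRSF10B, the TRAIL receptor DR5, had 32.0 and 28.0 RPKM in p53-/- cells, against 40.2 and 35.8 RPKM in p53+/+ cells, and its gap of -0.34 missed it without a block (limma adjusted p = 0.107) and passed it with the block (0.00453) and with the own Entinostat term (0.00158). Among 19 death receptor genes TNFRSF10C was the single call without a block, where 3.76% of all genes were called, and 2 were lower with the block.

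Genes called under Entinostat were found on all 23 chromosomes examined. Among the 11580 tested genes with a chromosome, the share called per chromosome ran from 2.48% to 5.45%, and the median gap from -0.08 to 0.04.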

How the data were processed

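The authors deposited RPKM per gene. Bowtie2, Partek and hg19 are named in the submitters' processing notes; versions, gene models and handling of strand: not given in the sources used here. Per the labels, the library kit was stranded and selected mRNA. Values were taken as log2(RPKM + 0.5), and the 12466 genes with a mean of at least 0.5 RPKM were fitted with limma 3.58.1 in R 4.3.3, as 8 group means over all 16 libraries with an intensity trend in the variance. Benjamini-Hochberg adjustment ran over all tested genes in each comparison. The scripts were tested on simulated data.

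Named genes are, among called genes with a mean of at least 1 RPKM and libraries that do not overlap, the 10 with the largest gaps in each direction, plus up to 4 called members per list, the persisting genes with the largest gaps, CDKN1A, EHF and MDM2. Members of a list that were not called could be named with values. The genes compared and the lists were chosen with earlier results of these data known. Some genes are not reported here, though the counts over all genes include them. Across genes, the differences between replicates 1 and 2 correlated in each of 28 pairs of groups (r from 0.28 to 0.78, median 0.43; 0.6 to 0.78 in the 6 pairs with Entinostat in both). The replicate number was therefore fitted as a block in alternative fits, also with a term of its own in the groups with Entinostat. Other scalings, pseudocounts, filters, subsets and left-out libraries were tried.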

Additional observations from a re-analysis of the deposited data

Results flagged for a closer look

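The change with Entinostat differed between p53-/- and p53+/+ cells by the limma test of the difference in both blocked fits for 4 genes, of which 3 are reported: RGS2 (1.97), MKX (1.31) and CDKN1A (1.30), as log2 differences p53-/- minus p53+/+. Without a block the adjusted p was 1 for each.

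In 7 further genes every p53-/- library moved one way with Entinostat and every p53+/+ library the opposite way. The p53-/- libraries were higher and the p53+/+ libraries lower with Entinostat for EHF (1.32), DSC3 (1.02), FAS (0.79) and CASP4 (0.43). The p53-/- libraries were lower and the p53+/+ libraries higher for NECTIN3 (-1.07), FAM89B (-0.62) and TNFRSF10C (-0.42). The limma test of the difference without a block gave none of the 7 an adjusted p under the threshold. DSC3, FAM89B and NECTIN3 passed it with the own Entinostat term. These genes were picked out of those named for this pattern, and its share among all tested genes was not counted. No conclusion about them is drawn from the pattern. With 2 libraries per group separation is common: between genotypes under Entinostat, the libraries of 45.2% of tested genes did not overlap. CASP4 in p53-/- cells had 0.3924 RPKM in the lower Entinostat library, against 0.3873 RPKM in the higher DMSO library. Within genotypes, the change with Entinostat passed the limma test without a block in both only for DSC3. EHF passed only in p53+/+ cells and NECTIN3 only in p53-/- cells. CASP4 (limma adjusted p = 0.39 in p53-/- and 0.246 in p53+/+ cells), FAS (0.258 and 0.14), FAM89B and TNFRSF10C passed in neither. The p53-/- libraries of CASP4, EHF and TNFRSF10C held at most 0.5154 RPKM under Entinostat and DMSO.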

How the results depend on the processing

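With the replicate block, with an own Entinostat term and with a block over the 8 Entinostat libraries, the Entinostat gap had 1644, 2402 and 2253 calls, the block and own-term counts for the DMSO gap were 1634 and 2166, and the combination gap had 7194 with the own term and 7160 over the 8 libraries. The change of gap had 4 calls with the block and 14 with the own term, and also 14 without a filter on low values. All 14 without the filter were called under Entinostat, with a change in the direction of the Entinostat gap. Persisting genes numbered 987 and 1375 in the blocked fits, called DMSO gaps that narrowed 4 and 10, and called Entinostat gaps that widened 1 with the own term. With only the libraries compared, 131 genes were called for the Entinostat gap and 1688 for the combination gap; that fit has fewer samples.

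Without 1 library the Entinostat gap had 175 to 261 calls, the DMSO gap 239 to 341, the combination gap 2359 to 4783, persisting genes 169 to 235 and the change of gap 0. All 469 genes kept their sign, and 245, 184, 173 and 216 stayed called without p53-/- replicates 1 and 2 and p53+/+ replicates 1 and 2. Among the named gaps only CRIP2 (-0.191 without p53-/- replicate 1, -0.166 without p53+/+ replicate 2, up to 0.455) and SMIM3 (-0.038 without p53+/+ replicate 1, up to 0.523) reversed; neither was called, and the cause was not tested. Scaling, pseudocount, a stricter filter and the variance trend left the Entinostat count within 1.5 times. The median half-width of the 95% interval of the Entinostat gap was 0.3, before adjustment across genes. Larger gaps also missed the threshold, such as -1.425 for ADGRF1 (limma adjusted p = 0.0559). Gaps well above 0.3 could therefore go undetected with 2 libraries per group.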
